A study of Rattus norvegicus with 10 samples.

Results

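A set of 10 genes that human genetics or cell biology ties to the risk of Alzheimer's disease was followed in the left hippocampus of transgenic rats: the apolipoproteins Apoe and Clu, the lipid transporters Abca1 and Abca7, the receptors Lrp1 and Sorl1, the endocytic adaptors Bin1 and Picalm, and the microglial pair Trem2 and Tyrobp. The 10 genes were taken by symbol from a table of 17168 genes, and all 10 were among the 12355 genes with enough reads to be tested. The tissue came from 5 male TgF344-AD rats given ibudilast and 5 untreated male TgF344-AD rats that ate rodent chow. Both groups carry the same human transgenes, a mutant APP among them, which the mouse prion promoter drives in this line, so no rat here was free of them. Ibudilast is an inhibitor of cyclic nucleotide phosphodiesterases, and treatment began when the rats were 5 months old and lasted 6 months, and hippocampi of both groups were collected at 11 months. Each rat gave 1 poly(A) RNA library, and values are CPM, read counts relative to the library size, which was scaled by TMM. Per the series' design text, the ibudilast samples alone were kept in RNAlater-ICE, a solution for frozen tissue, so that drug and storage cannot be told apart in any difference below.

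APOE is the main lipid carrier made by astrocytes in the brain, and clusterin (CLU) is a secreted chaperone that travels on similar particles. ABCA1 loads lipid onto APOE, its relative ABCA7 moves phospholipid and is linked to phagocytosis, and LRP1 takes up APOE particles and amyloid peptide. SORL1 sorts APP away from the endosomes in which amyloid is cut out of it, PICALM and BIN1 shape and coat endocytic membrane, and TREM2 is a microglial lipid receptor that signals through TYROBP.

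Library totals ran from 14806807 to 17114238 counts with ibudilast and from 15984438 to 18533520 counts in untreated rats. The 10 genes held between 224 counts (Tyrobp) and 134165 counts (Apoe) in a single library. Neuronal, astrocytic, oligodendrocytic and microglial markers were present in all libraries, as the tissue label calls for. Some libraries stood apart by markers of neighbouring tissue or of microglia. The summed level of 12 choroid plexus and ependymal markers was 7488 CPM in ibudilast rat 1, against 106 to 405 CPM in the other ibudilast rats, and 8135 CPM in untreated rat 2, against 43.2 to 305 CPM in the other untreated rats. The 9 meningeal and fibroblast markers summed to 9790 CPM in ibudilast rat 4 and 3825 CPM in untreated rat 2, and 17 microglial markers to 2053 CPM in untreated rat 3. Results that rest on these 4 rats are given with and without them.

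Of the 10 genes, 6 differed between ibudilast and untreated rats at an adjusted p under 0.05. Abca7 and Bin1 rose, and Abca1, Lrp1, Sorl1 and Picalm fell, while Apoe, Clu, Trem2 and Tyrobp did not pass. Among all genes tested 47.1% passed, 24.3% being higher and 22.8% lower with ibudilast. The 6 of 10, and the counts for each list below with all rats, are read against these shares. The median log2 fold change was -0.06 over the 10 genes and 0.02 over all genes tested. Groups did not overlap at all in 3 of the 10, Abca7 and Bin1 higher and Picalm lower, where 33.4% of all genes tested did not overlap (18% higher, 15.4% lower). Tests are edgeR's quasi-likelihood F test with Benjamini-Hochberg adjustment over all genes tested, and each fold change is ibudilast over untreated. In bulk tissue, fewer cells of a type and less RNA per cell cannot be told apart. Without untreated rat 3, 8 of the 10 passed (4 higher, 4 lower), where 50.7% of all genes did, and without the 4 rats that stood apart 8 also passed (4 higher, 4 lower), where 55.6% of all genes did. Without the 2 rats high in choroid plexus markers, 4 passed (2 higher, 2 lower), where 41.6% of all genes did.

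**Figure D1:**
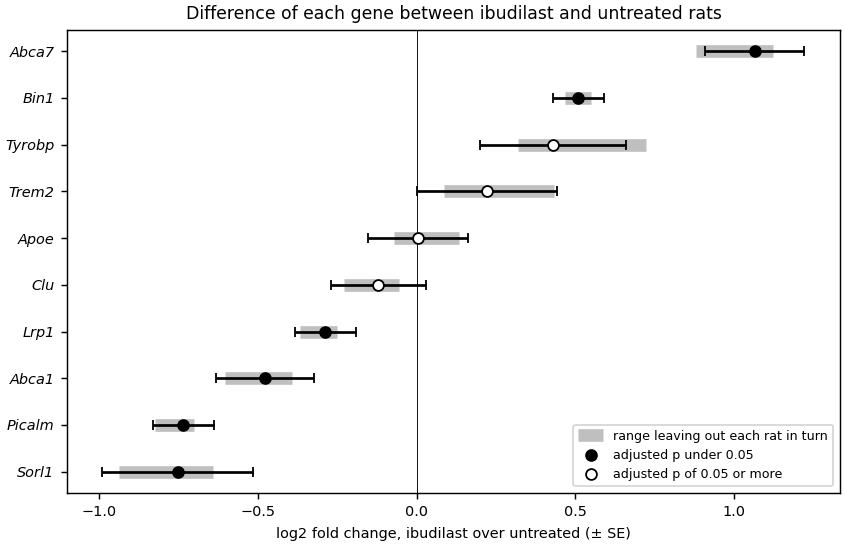
Log2 fold change of each of the 10 genes, ibudilast over untreated, on the x axis. Points are the fitted values with their standard errors, filled where the adjusted p was under 0.05, and grey bars span the values obtained when each rat was left out in turn. Abca7 at 1.06 and Bin1 at 0.51 lie to the right of 0, Picalm at -0.73 and Sorl1 at -0.75 to the left, and the bar of Apoe crosses 0.

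The start regions of 4 of these genes are shown because Abca7 and Bin1 rose, Picalm fell with no overlap of the groups, and Sorl1 had the fall with the largest fitted size of the 10. They are RefSeq promoter windows of the GRCr8 build, from 250 bases before to 50 after the start of the gene, 5′ to 3′ on the strand of the gene. Capitals mark matches on either strand to TGACG, the short form of the cAMP-response element that CREB binds, to CACGTG, the E-box core, and to GAGGAA, the core bound by the myeloid factor PU.1.
Abca7 promoter, chr7:10361940-10362239, minus strand: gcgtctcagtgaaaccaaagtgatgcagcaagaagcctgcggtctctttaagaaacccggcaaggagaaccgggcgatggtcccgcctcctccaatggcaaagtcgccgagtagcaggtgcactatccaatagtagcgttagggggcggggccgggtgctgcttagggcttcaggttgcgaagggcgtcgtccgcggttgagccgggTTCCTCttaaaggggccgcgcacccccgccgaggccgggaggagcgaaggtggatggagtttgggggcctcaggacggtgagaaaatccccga
Bin1 promoter, chr18:24283701-24284000, plus strand: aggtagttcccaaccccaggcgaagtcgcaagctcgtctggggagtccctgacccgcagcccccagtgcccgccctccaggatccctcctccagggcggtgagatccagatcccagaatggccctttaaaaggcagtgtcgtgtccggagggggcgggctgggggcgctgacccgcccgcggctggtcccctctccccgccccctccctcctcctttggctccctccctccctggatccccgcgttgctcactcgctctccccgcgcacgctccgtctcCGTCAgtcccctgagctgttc
Picalm promoter, chr1:153469047-153469346, plus strand: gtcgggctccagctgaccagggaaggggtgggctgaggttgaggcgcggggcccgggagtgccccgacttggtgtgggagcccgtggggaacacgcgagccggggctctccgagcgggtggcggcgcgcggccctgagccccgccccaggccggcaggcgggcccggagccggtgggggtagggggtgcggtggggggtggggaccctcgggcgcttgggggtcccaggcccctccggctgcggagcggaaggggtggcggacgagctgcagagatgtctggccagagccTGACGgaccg
Sorl1 promoter, chr8:51401198-51401497, minus strand: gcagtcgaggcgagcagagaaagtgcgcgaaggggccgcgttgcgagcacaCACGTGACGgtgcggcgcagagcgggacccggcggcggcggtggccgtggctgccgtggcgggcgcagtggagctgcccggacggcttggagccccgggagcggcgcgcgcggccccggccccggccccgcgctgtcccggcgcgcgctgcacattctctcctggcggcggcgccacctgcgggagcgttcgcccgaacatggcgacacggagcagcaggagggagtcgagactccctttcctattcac
A TGACG lay in Bin1 (on the opposite strand, at position 30 after the start), in Picalm (position 41) and in Sorl1 (position -195), and it lay in 21.2% of all 33469 windows. In Sorl1 it overlapped a CACGTG at position -199, a word held by 6.42% of windows and also found in Abca1 at position -149. GAGGAA, held by 27.6% of windows, was matched on the opposite strand in Abca7 (position -43), Trem2 (position -29) and a window of Apoe (position -108). The full element TGACGTCA, held by 1.83% of windows, was in none of the windows of the 8 genes with an entry, and Clu and Tyrobp have none. Genes that rose and genes that fell both held TGACG, and a match describes the letters in the window alone.

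The apolipoproteins did not pass the test. Apoe had 6011, 5161, 5721, 6802 and 6264 CPM in ibudilast rats 1 to 5, against 5444, 5153, 8376, 5165 and 5729.8 CPM in untreated rats 1 to 5. Untreated rat 3 was the highest of all 10 rats and the other 9 lay together, with 5992 ± 611 CPM in the ibudilast group and 5974 ± 1364 CPM in the untreated group (SD, n = 5 each). The log2 fold change was 0.0044 ± 0.16 (SE, adjusted p = 0.985) and 0.13 without untreated rat 3 (adjusted p = 0.311). In that rat the microglial markers also summed highest and 15 astrocyte markers reached 12949 CPM, against 8693 to 10535 CPM over the ibudilast rats and 8062 to 10084 CPM over the other untreated rats. Of the 15 astrocyte markers 0 rose and 6 fell with all rats, where 24.3% of all genes tested rose and 22.8% fell. Without untreated rat 3, 3 rose and 6 fell, where 3068 of 12417 genes rose and 3224 fell. Without the 4 rats that stood apart 2 rose and 7 fell, where 3483 of 12325 genes rose and 27.4% fell. The part of the microglial and astrocyte markers in the Apoe level was not tested.

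Clu had 1645, 1154, 1071, 1329 and 1178 CPM in ibudilast rats 1 to 5, against 1105, 1702, 1455, 1374 and 1292 CPM in untreated rats 1 to 5. The groups overlapped widely, and the log2 fold change was -0.12 ± 0.15 (adjusted p = 0.537). The highest Clu of each group was in the rat with the high choroid plexus markers, ibudilast rat 1 and untreated rat 2, where transthyretin (Ttr), the main secreted product of that tissue, reached 6666 and 7121 CPM. Without those 2 rats the log2 fold change of Clu was -0.14 (adjusted p = 0.379). The rat Clu gene overlaps Scara3 in the RefSeq annotation, and no source used here says whether counting used the strand.

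The ABC transporters moved in opposite directions. Abca7 had 57.8, 58.9, 55.6, 94.6 and 65.9 CPM in ibudilast rats 1 to 5, against 31.9, 33.2, 38.1, 26.5 and 29.4 CPM in untreated rats 1 to 5. Every ibudilast rat was above every untreated rat, with means of 66.5 ± 16.1 and 31.8 ± 4.35 CPM in ibudilast and untreated rats (SD, n = 5 each), a log2 fold change of 1.06 ± 0.16 (adjusted p = 3.67e-04). The highest value was that of ibudilast rat 4, and without this rat the log2 fold change was 0.88 (adjusted p = 1.65e-04). Over all genes tested, 7.41% had a fold change of larger size. For the other genes of the 10 that passed, this share was 17.5% (Sorl1), 18.4% (Picalm), 34.6% (Bin1), 37.7% (Abca1) and 59.4% (Lrp1).

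Abca1, the transporter that starts the lipidation of APOE, had 40.9, 31.8, 24.0, 28.4 and 28.1 CPM in ibudilast rats 1 to 5, against 38.3, 43.5, 55.3, 37.2 and 39.0 CPM in untreated rats 1 to 5. In Abca1, 4 of the 5 ibudilast rats lay below all untreated rats, and ibudilast rat 1 lay among them. The log2 fold change was -0.48 ± 0.15 (adjusted p = 0.0255). The call was lost under upper-quartile scaling (-0.43, adjusted p = 0.0529) and under library size alone (-0.40, adjusted p = 0.0521). It was also lost without ibudilast rat 3 (-0.40, adjusted p = 0.0566) and without ibudilast rat 5 (-0.45, adjusted p = 0.0592). Abca1 passed without the 4 rats that stood apart (-0.45, adjusted p = 0.00402) and without the 2 rats high in choroid plexus markers (-0.60, adjusted p = 0.0119).

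Both receptors fell, each with overlap of the groups. Lrp1 had 792, 742, 678, 883 and 713 CPM in ibudilast rats 1 to 5, against 855, 964, 1017, 897 and 915 CPM in untreated rats 1 to 5. Ibudilast rat 4 alone reached into the untreated range, and the log2 fold change was -0.29 ± 0.10 (adjusted p = 0.0299). The summed level of 13 endothelial markers, none of them at 0, ran from 316 to 661 CPM in ibudilast rats and from 572 to 1083 CPM in untreated rats. Of the 13, 0 were higher and 6 lower, where 24.3% of all genes tested were higher and 22.8% lower. Without the 4 rats that stood apart 1 was higher and 12 lower, where 3483 of 12325 genes were higher and 27.4% lower. Ibudilast rat 4 and untreated rat 3 were the highest of their groups in both Lrp1 and these markers. The same held for the summed level of 9 mural markers, at 387 and 242 CPM in these rats. Both rats were also the lowest of their groups in summed excitatory neuron markers, at 3025 and 7450 CPM. Pearson's r of Lrp1 with each summed list was taken on deviations from group means of log2 values over the 10 rats. It was 0.94 for endothelial, 0.92 for mural, -0.92 for excitatory neuron, 0.85 for blood and leukocyte and 0.81 for meningeal and fibroblast markers. The part of any marker list in the fall of Lrp1 was not tested. The call of Lrp1 was lost without the 2 rats high in choroid plexus markers (-0.29, adjusted p = 0.0754) and when any of 6 single rats, ibudilast rats 2, 3 and 5 and untreated rats 2, 4 and 5, was left out (adjusted p from 0.0501 to 0.0746). It was lost as well under upper-quartile scaling (-0.24, adjusted p = 0.0924) and library size alone (-0.21, adjusted p = 0.154). Lrp1 passed without the 4 rats that stood apart, at -0.32 (adjusted p = 0.00291), and without ibudilast rat 4 alone at -0.37 (adjusted p = 0.00744).

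Sorl1 had 231, 246, 263, 144 and 282 CPM in ibudilast rats 1 to 5, against 399.9, 419, 208, 441 and 496 CPM in untreated rats 1 to 5. Ibudilast rat 4 and untreated rat 3 were the lowest of their groups, and untreated rat 3 was the one untreated rat within the ibudilast range. The mean was 233 ± 53.6 CPM with ibudilast and 393 ± 109 CPM without it (SD, n = 5 each), a log2 fold change of -0.75 ± 0.24 (adjusted p = 0.0234). The same 2 rats had the lowest summed level of 13 excitatory neuron markers in their groups, 3025 CPM in ibudilast rat 4 and 7450 CPM in untreated rat 3, where the other rats had 5816 to 8564 CPM with ibudilast and 10210 to 11724 CPM without it. Without all 4 rats that stood apart the log2 fold change of Sorl1 was -0.75 (adjusted p = 9.69e-05). Without the 2 rats high in choroid plexus markers it was -0.72 (adjusted p = 0.0778), and without untreated rat 5 it was -0.65 (adjusted p = 0.0575), and neither passed the threshold.

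The endocytic adaptors also moved in opposite directions. Bin1, an amphiphysin relative that bends membrane, had 502, 597, 577, 570.0 and 582 CPM in ibudilast rats 1 to 5, against 382, 374, 396, 395 and 441 CPM in untreated rats 1 to 5. The lowest ibudilast rat was above the highest untreated rat, with a log2 fold change of 0.51 ± 0.08 (adjusted p = 5.35e-04). Bin1 is expressed by oligodendrocytes as well as neurons. Of 19 oligodendrocyte markers 10 rose and 0 fell, where 24.3% of all genes tested rose and 22.8% fell. Leaving out the 4 rats that stood apart, 7 of the 19 rose and 1 fell, where 3483 of 12325 genes rose and 27.4% fell. Without the 2 rats high in choroid plexus markers 7 of the 19 rose and 0 fell, where 2688 of 12338 genes rose and 19.8% fell. The summed level of the 19 oligodendrocyte markers was 17077 to 20499 CPM with ibudilast and 8599 to 16400 CPM without it, so these sums, like Bin1, did not overlap. Their part in the rise of Bin1 was not tested.

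Picalm, which binds clathrin and recruits it to the membrane, had 60.6, 56.3, 48.5, 47.4 and 54.9 CPM in ibudilast rats 1 to 5, against 96.3, 90.6, 72.7, 92.9 and 92.7 CPM in untreated rats 1 to 5. All ibudilast rats were below all untreated rats, and untreated rat 3 was the lowest of its group. The mean was 53.6 ± 5.52 CPM with ibudilast and 89.1 ± 9.35 CPM without it (SD, n = 5 each), a log2 fold change of -0.73 ± 0.10 (adjusted p = 1.90e-04). Abca7, Bin1 and Picalm kept their calls in all 23 alternative fits, with log2 fold changes from 0.88 to 1.15, from 0.47 to 0.58 and from -0.82 to -0.67.

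**Figure D2:**
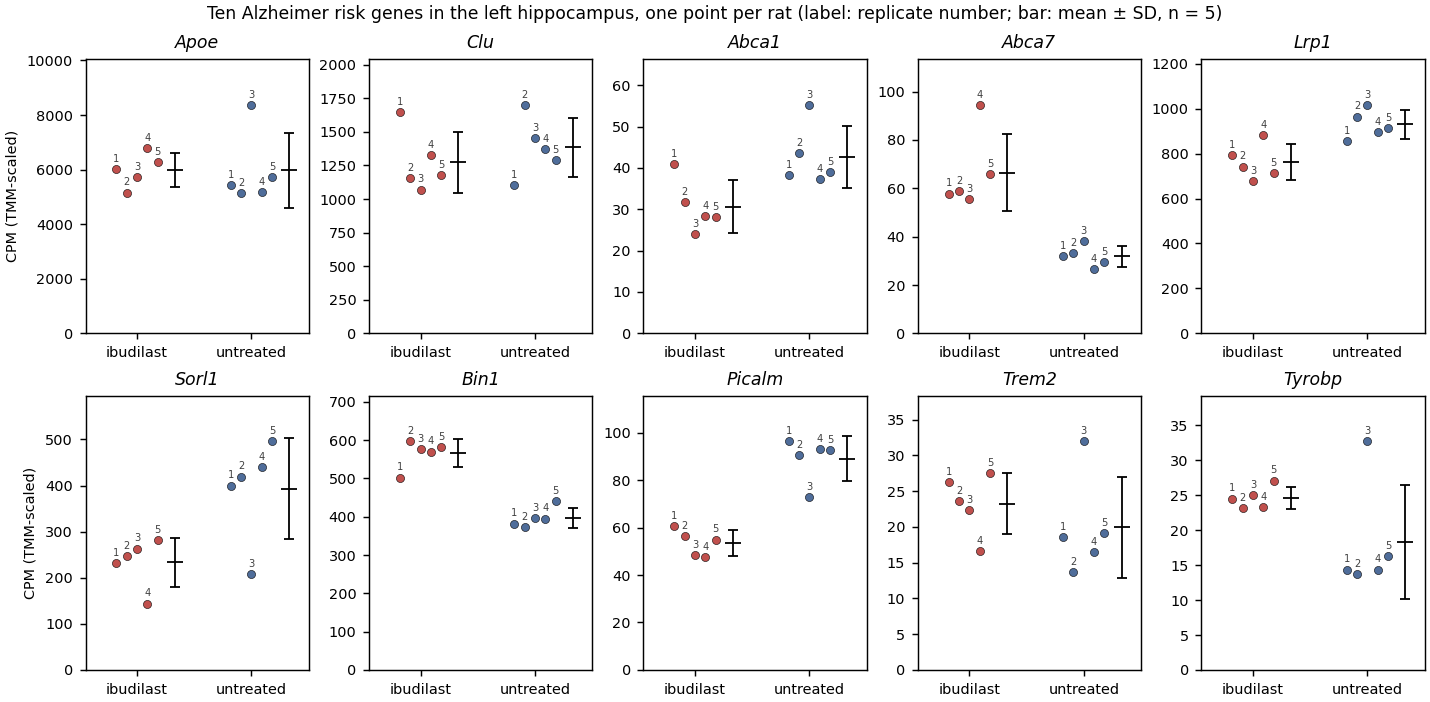
CPM of each of the 10 genes on the y axis, 1 point per rat with its replicate number, ibudilast rats left and untreated rats right, and the mean ± SD of each group beside the points (n = 5). The groups do not overlap in Abca7, Bin1 and Picalm, and untreated rat 3 lies far from the other untreated rats in Apoe, Sorl1, Picalm, Trem2 and Tyrobp.

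The calls of the microglial pair turned on untreated rat 3. Trem2 had 26.3, 23.6, 22.3, 16.6 and 27.5 CPM in ibudilast rats 1 to 5, against 18.6, 13.6, 32.0, 16.5 and 19.2 CPM in untreated rats 1 to 5, a log2 fold change of 0.22 ± 0.22 (adjusted p = 0.438). Tyrobp had 24.5, 23.2, 25.0, 23.3 and 27.1 CPM in ibudilast rats 1 to 5, against 14.4, 13.7, 32.7, 14.4 and 16.3 CPM in untreated rats 1 to 5, a log2 fold change of 0.43 ± 0.23 (adjusted p = 0.148). Untreated rat 3 was above all ibudilast rats in both genes, whereas the other 4 untreated rats were below all ibudilast rats in Tyrobp and below 4 of the 5 in Trem2. Without untreated rat 3, Tyrobp averaged 24.6 ± 1.60 CPM in ibudilast rats (n = 5) and 14.7 ± 1.13 CPM in untreated rats (SD, n = 4). Its log2 fold change was then 0.72 (adjusted p = 6.35e-05), and that of Trem2 was 0.43 (adjusted p = 0.0400). Without the 4 rats that stood apart the values of Tyrobp and Trem2 were 0.74 (adjusted p = 1.77e-04) and 0.44 (adjusted p = 0.00589). Leaving out some other rats moved Trem2 toward 0, to 0.06 without the 2 rats high in choroid plexus markers (adjusted p = 0.847). It was 0.085 without untreated rat 2 (adjusted p = 0.762) and 0.14 without untreated rat 4 (adjusted p = 0.678). Trem2 lay farther from 0 without ibudilast rat 3 (0.23, adjusted p = 0.467) and without ibudilast rat 4 (0.30, adjusted p = 0.293). Tyrobp was at 0.34 without the 2 choroid-high rats (adjusted p = 0.323).

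With all rats, 24.3% of all genes tested rose and 22.8% fell. Of 17 other microglial markers 0 rose, 7 fell and 10 did not pass. Without untreated rat 3 the counts were the same, where 3068 of 12417 genes rose and 3224 fell. Once the 4 rats that stood apart were left out, 2 rose, 8 fell and 7 did not pass, where 3483 of 12325 genes rose and 27.4% fell. The summed level of the 17 markers was 843 to 1003 CPM in ibudilast rats. It was 2053 CPM in untreated rat 3 and 1040 to 1192 CPM in the other untreated rats, with none of the markers at 0. P2ry12, the purinergic receptor of resting microglia, fell to 10.4 ± 0.886 CPM with ibudilast, against 26.7 ± 8.59 CPM in untreated rats (SD, n = 5 each), and Csf1r, the growth factor receptor on which these cells depend, had a log2 fold change of -0.70 (adjusted p = 0.00816) and fell too. C1qa, a complement subunit made by microglia, was at -0.19 (adjusted p = 0.380). Whether untreated rat 3 held more microglia or more RNA of them cannot be told apart, and its other marker sums differed as well. Of all 10 rats it had the highest summed astrocyte (12949 CPM) and endothelial (1083 CPM) markers and the lowest oligodendrocyte markers (8599 CPM). The part of any of these lists in its Trem2 and Tyrobp levels was not tested.

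**Figure D3:**
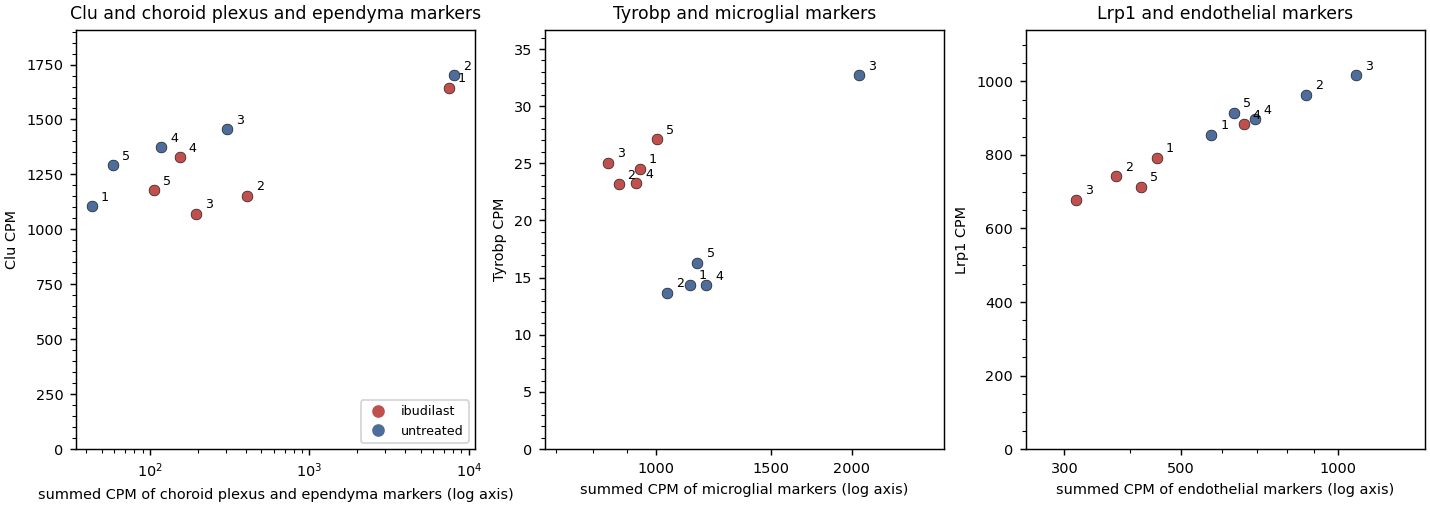
CPM of 3 genes on the y axis against the summed CPM of a marker list on a log x axis, 1 point per rat with its replicate number, ibudilast in red and untreated in blue. Clu is highest in the 2 rats at about 7488 and 8135 CPM of choroid plexus markers, Tyrobp is plotted against microglial markers with untreated rat 3 alone at 2053 CPM, and Lrp1 against endothelial markers.

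Ratios of a pair of genes in the same library do not depend on how libraries are scaled. Without gene lengths their level has no meaning of its own, so the difference between groups alone is read, and no test was run. The log2 ratio of Bin1 to Picalm was 3.40 ± 0.22 with ibudilast and 2.16 ± 0.19 without it (SD, n = 5 each), a difference of 1.24, and ran from 3.05 to 3.59 in ibudilast rats and from 1.99 to 2.45 in untreated rats. These ranges did not overlap, which follows from every ibudilast rat being above every untreated rat in Bin1 and below every one in Picalm. The other ratios all overlapped. The difference was -0.51 for Abca1 to Apoe, -0.44 for Sorl1 to Lrp1, -0.25 for Trem2 to Tyrobp and -0.15 for Clu to Apoe. The Sorl1 to Lrp1 ratio was lowest in ibudilast rat 4 (-2.62) and untreated rat 3 (-2.29), and the difference was -0.22 without ibudilast rat 4 and -0.69 without untreated rat 3. The Clu to Apoe difference was -0.02 without untreated rat 2, -0.24 without ibudilast rat 1 and -0.25 without untreated rat 3, and that of Trem2 to Tyrobp was -0.16 without ibudilast rat 4. The Trem2 to Tyrobp ratio of untreated rat 3 was -0.03, close to that of untreated rat 2 at -0.0056, although both genes were highest in rat 3.

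**Figure D4:**
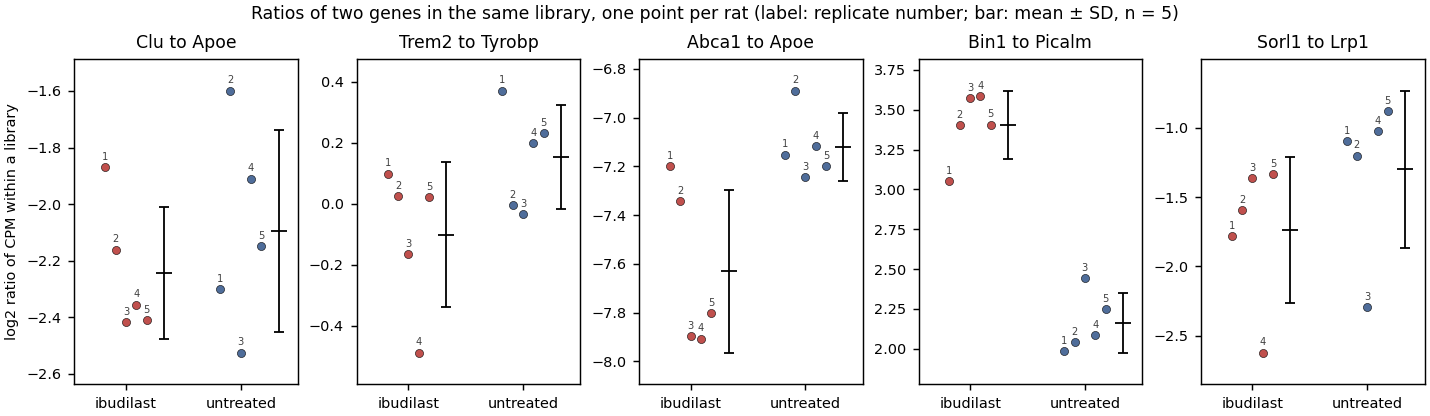
Log2 ratio of the CPM of a pair of genes within a library on the y axis, 1 point per rat with its replicate number, ibudilast left and untreated right, with the mean ± SD of each group (n = 5). The y axes do not start at 0. The groups are apart in the Bin1 to Picalm ratio, at 3.05 to 3.59 and 1.99 to 2.45, and overlap in the others.

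The pathways around the 10 genes were described by lists that hold none of them, and values after a gene name or after "by" are log2 fold changes. Over all genes tested, 24.3% were higher with ibudilast and 22.8% were lower. Of 27 lipoprotein and cholesterol genes, 4 were higher with ibudilast, 9 were lower and 14 did not pass (median log2 fold change 0.01). Without the 4 rats that stood apart 7 were higher, where 3483 of 12325 genes were. Without the 2 rats high in choroid plexus markers 5 were lower, where 19.8% of all genes were. The 4 that rose were Rxrb (0.63) and Nr1h2 (0.59), the nuclear receptors of the RXR and liver X families that pair to drive cholesterol export, Stard3 (0.43), which moves cholesterol out of late endosomes, and Abca2 (0.55), a transporter abundant in oligodendrocytes. Abcg1, which exports cholesterol to lipoproteins, fell to 77.6 ± 5.98 CPM with ibudilast, against 97.0 ± 5.97 CPM in untreated rats (SD, n = 5 each, adjusted p = 0.00383). Vldlr, a receptor that binds APOE, was at -0.30 (adjusted p = 0.0760). Lrpap1, the chaperone that keeps LRP1 from binding ligands while it is folded, fell by 0.24 (adjusted p = 0.0225). The other liver X receptor, Nr1h3, was at 0.46 (adjusted p = 0.153) and Rxra at -0.05 (adjusted p = 0.836).

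Of 32 clathrin endocytosis genes, 6 rose, 17 fell and 9 did not pass, with a median of -0.32. Snap91, the neuronal relative of Picalm, fell to 152 ± 22.0 CPM with ibudilast, against 365 ± 42.5 CPM in untreated rats (SD, n = 5 each), a log2 fold change of -1.26 ± 0.12 (adjusted p = 3.46e-05). The clathrin heavy chain Cltc (-0.77), the uncoating factor Dnajc6 (-1.16), the Bin1 relative Amph (-0.94) and the fission enzyme Dnm1 (-0.59) also fell, as did the adaptor subunit Ap2a1 (-0.30). Ap2m1, the cargo-binding subunit of the same adaptor, was at -0.15 (adjusted p = 0.292) and the scaffold Cd2ap at -0.45 (adjusted p = 0.137). Sh3gl1, the endophilin expressed in most tissues, rose by 0.71. Thus Amph and Snap91 fell, while of their relatives Bin1 rose and Picalm fell. Of 13 excitatory neuron markers 5 fell and 0 rose, where 22.8% of all genes tested fell. Without the 2 rats high in choroid plexus markers 3 of the 13 fell, where 19.8% of all genes did. Without the 4 rats that stood apart 7 fell, where 27.4% of all genes did. The 13 markers summed to 3025 to 8564 CPM with ibudilast and 7450 to 11724 CPM without it. Their part in the falls of the clathrin endocytosis genes was not tested.

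Of 27 retromer and endosomal sorting genes, through which SORL1 carries its cargo, 1 rose, 17 fell and 9 did not pass, with a median of -0.36. Vps35, the core of retromer, fell to 116 ± 15.2 CPM with ibudilast, against 206 ± 25.6 CPM in untreated rats (SD, n = 5 each, log2 fold change -0.82, adjusted p = 3.13e-04), and its partner Vps26a fell by 0.67. The early endosome GTPase Rab5a fell by 1.00, the recycling GTPase Rab11a by 0.89 and Sort1, a receptor of the same family as SORL1, by 0.45 (adjusted p = 0.0450). Gga1, an adaptor that binds the tail of SORL1, rose by 0.44. Without the 4 rats that stood apart, 18 of 32 clathrin genes and 17 of 27 sorting genes fell, where 27.4% of all genes did, and without the 2 rats high in choroid plexus markers 13 and 15 did, where 19.8% of all genes did. With all rats 22.8% of genes fell, and the counts describe the 2 lists and were not tested as sets.

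Around TREM2 and TYROBP, 19 signalling genes were tested. Of these, 2 were higher with ibudilast, 4 were lower and 13 did not pass, where 24.3% of all genes were higher and 22.8% lower. The median of this list was -0.15. Without untreated rat 3 it was 0.07, with 4 genes higher and 4 lower, where 3068 of 12417 genes were higher and 3224 lower. Without the 4 rats that stood apart it was 0.11, with 3 higher and 5 lower, where 3483 of 12325 genes were higher and 27.4% lower. With all rats, the kinase Lyn (-0.73), the phospholipase Plcg2 (-0.58), the adaptor Grb2 (-0.48) and Csf1r fell, and the kinase subunit Pik3cd rose (0.40). Syk, the kinase that docks on phosphorylated TYROBP, was at -0.0052 (adjusted p = 0.981), the phosphatase Inpp5d at -0.15 (adjusted p = 0.663) and the myeloid transcription factor Spi1 at -0.18 (adjusted p = 0.446). Adam17, a protease that sheds TREM2, was at -0.27 (adjusted p = 0.0590). Of 16 genes of microglial activation, 1 rose, the ferritin chain Fth1 (0.50), 1 fell, Gpnmb (-0.50), and 14 did not pass, with a median of -0.02. Without the 4 rats that stood apart 2 of these 16 rose and 3 fell, where 3483 of 12325 genes rose and 27.4% fell.

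Over all genes tested 47.1% passed, 24.3% rising and 22.8% falling with ibudilast. Among 24 other genes of Alzheimer risk, 2 rose, 9 fell and 13 did not pass, with a median of -0.43. Of this list, 0 rose and 8 fell without the 2 rats high in choroid plexus markers, where 2688 of 12338 genes rose and 19.8% fell. Without the 4 rats that stood apart 1 rose and 13 fell, where 3483 of 12325 genes rose and 27.4% fell. Adam10, the protease that cuts APP within the amyloid sequence, fell to 56.7 ± 6.58 CPM with ibudilast, against 92.2 ± 6.16 CPM in untreated rats (SD, n = 5 each, log2 fold change -0.70, adjusted p = 1.33e-04). The lysosomal membrane gene Tmem106b (-1.18), the splicing factor Celf1 (-0.89) and the APP-binding adaptor Apba1 (-0.97) fell as well. Rin3, which acts with BIN1 on RAB5, was at 0.51 (adjusted p = 0.388), with 11.6 ± 9.83 CPM in ibudilast rats and 8.16 ± 2.78 CPM in untreated rats (SD, n = 5 each).

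**Figure D5:**
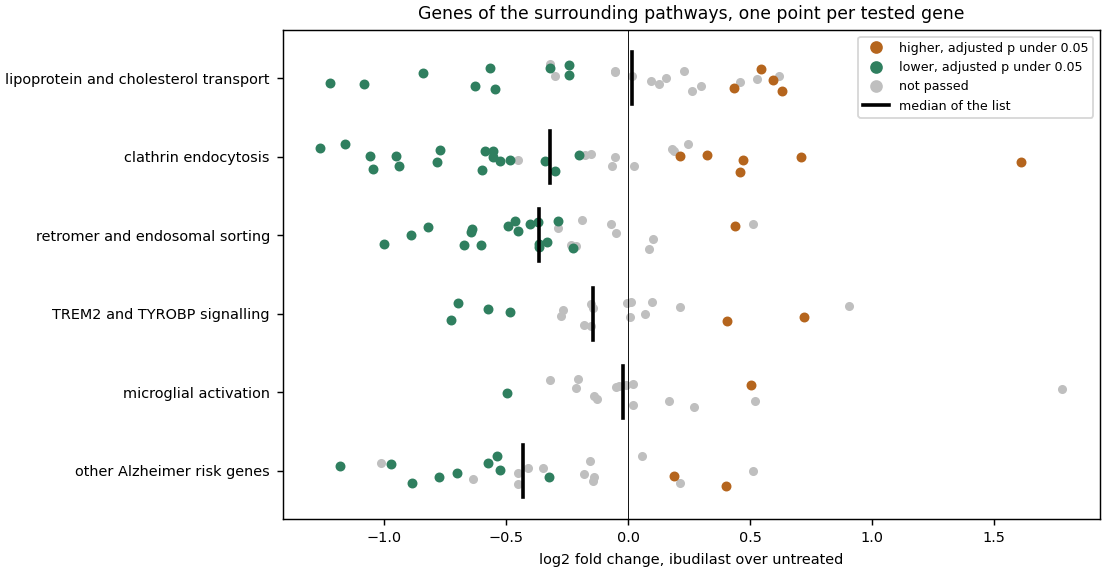
Log2 fold change, ibudilast over untreated, of each tested gene of 6 lists on the x axis, 1 point per gene, coloured by whether it was higher, lower or did not pass at an adjusted p of 0.05, with the median of each list as a black bar. The medians lie at -0.32 for clathrin endocytosis, -0.36 for retromer and sorting and -0.43 for other risk genes, and near 0 for lipoprotein genes (0.01) and microglial activation (-0.02).

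Rat-to-rat variation within groups set some of the 10 genes together. Ibudilast rat 4 and untreated rat 3 were the highest of their groups in Apoe, Abca7 and Lrp1 and the lowest in Sorl1 and Picalm. For each gene, the genes of most similar pattern were sought by Pearson's r of the deviations from the group means of log2 CPM over the 10 rats, among 8739 genes of at least 10 CPM. The values describe these 10 libraries, which every gene shares, and the first of so many is high by selection. Nearest to Apoe were Cd53 (r = 0.98, Spearman's rho = 0.93), a leukocyte membrane protein, then Atp13a4 and Laptm5. Nearest to Trem2 were Lix1 (r = 0.99, rho = 0.95), Bcan and Selplg, and nearest to Tyrobp were Rps28 (r = 0.99, rho = 0.98), Pabpn1 and Luc7l3. Without the 2 rats farthest from the median these r values were 0.88 for Cd53, 0.97 for Lix1 and 0.93 for Rps28. The 3 genes nearest to Trem2 and the 3 nearest to Tyrobp had none in common.

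Nearest to Sorl1 were Ccz1 (r = 0.99, rho = 0.98, and r = 0.94 without the 2 farthest rats), Gpr155 and Atp2c1, and nearest to Picalm were Orc3 (r = 0.97, rho = 0.78, and r = 0.91), Vcpip1 and Tmem30a. Ccz1 itself rose by 0.58 with ibudilast (adjusted p = 3.35e-04) where Sorl1 fell, while Gpr155 (-0.85, adjusted p = 0.0292) and Atp2c1 (-0.72, adjusted p = 0.00160) fell like Sorl1. Of the genes nearest to Picalm, Vcpip1 (-1.25, adjusted p = 7.12e-05) and Tmem30a (-0.91, adjusted p = 9.57e-05) fell and Orc3 was at -0.35 (adjusted p = 0.0671). Nearest to Lrp1 were Cd151 (r = 0.98, rho = 0.98, and r = 0.97), Ltbp3 and Ctdsp1, and nearest to Clu were Unc119b (r = 0.98, rho = 0.92, and r = 0.93), Slc12a4 and Ocln. Abca7 was nearest to Tspan4 (r = 0.97, rho = 0.88, and r = 0.83), Engase and Gjb6, and Abca1 to Cdh23 (r = 0.95, rho = 0.90, and r = 0.81), Dhx37 and Aebp2. Bin1 had the weakest neighbours, Zcrb1 (r = 0.91, rho = 0.87, and r = 0.80), Deaf1 and Rab4b.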

How the data were processed

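Left hippocampal poly(A) RNA of 10 male transgenic rats was measured, 1 library per rat, with the group and number of each rat given by its title. Libraries, per the labels' protocols, came from a strand-specific mRNA kit. One deposited table holds the authors' expected counts, not normalized, and the other a normalized signal in which the authors' counts are divided by a TMM-scaled library size (100% of values gave whole reads within 0.01). RSEM 1.2.15, Bowtie2 2.1.0, bcl2fastq, edgeR and the rn6 build are named in the submitters' processing notes, with no step given. Of the counts 12.0% were not whole, and all were rounded before the quasi-likelihood F test of edgeR (4.0.16 in R 4.3.3, with TMM, filterByExpr, robust fit), checked on simulated counts, over the 12355 genes kept. log2 CPM used a prior count of 2. The replicate numbers did not enter the test. Alternatives were other scalings and filters, DESeq2 1.42.0, limma 3.58.1 (voom, and trend on log2 of the deposited signal plus 1), a replicate block, other thresholds and rats left out.

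The 10 genes and all lists were chosen with earlier results of these data known. Besides the 10 genes, the text names up to 4 passing genes per list by smallest p, fixed partners of the 10, the 3 nearest genes of each, and some markers (Ttr, P2ry12, C1qa) chosen after their values were seen; not every gene so chosen is reported here. Within groups, the lowest chi-square per gene between libraries was 11.6, so no library was a copy of another. Per the series' design text each library is a separate rat. Genome coordinates of GRCr8 belong to the promoter windows alone.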

Additional observations from a re-analysis of the deposited data

Results flagged for a closer look

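There were 20 groups of 5 rats, 1 per gene and treatment. In 5 groups a rat's gap to its nearest neighbour exceeded Dixon's 95% critical value of 0.71 of the group's range. For a single group chance gives about 1 in 20. The 20 groups share the same 10 rats, and genes such as Apoe and Tyrobp vary together (r = 0.89 within groups), so the 5 are not independent. In 3 of them the rat was untreated rat 3, with the highest Apoe (8376 CPM) and Tyrobp (32.7 CPM) and the lowest Picalm (72.7 CPM) of its group. Ibudilast rat 4 had the highest Abca7 (94.6 CPM) and ibudilast rat 1 the lowest Bin1 (502 CPM) of theirs. Ibudilast rat 4 was also high in meningeal markers, ibudilast rat 1 in choroid plexus markers and untreated rat 3 in microglial markers. The part of these markers in the 5 values was not tested.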

How the results depend on the processing

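Over 23 alternatives for each of the 10 genes, 198 log2 fold changes kept their direction and their side of the threshold, 18 lost a call, 4 gained one and 10 changed sign, all of Apoe. Abca7, Bin1 and Picalm kept their calls in all of them, and Clu did not pass in any. Of the 10 genes, 2 rather than 4 fell under upper-quartile factors, under library size alone and without the 2 rats high in choroid plexus markers. Over all genes tested, 2541, 2297 and 2445 fell in these fits, against 2813 in the main fit. At an adjusted p of 0.01, 3 of the 10 passed and 1 fell, where 3917 of all 12355 genes passed and 1859 fell. At that threshold 10 clathrin genes fell. Without the 4 rats that stood apart, an alternative chosen after seeing the data, 4 of the 10 rose, where 3483 genes rose in all. Leaving out single rats gave 2 to 4 of the 10 rising, the 4 without untreated rat 3, and 2 to 4 falling, the 2 without untreated rat 5 or ibudilast rats 3 or 5. In these fits 2549 to 3068 genes rose and 2461 to 3224 fell in all. The cause of these changes was not tested. The log2 fold change of Apoe, close to 0 throughout, was -0.0698 to 0.133 with single rats left out, -0.0166 with RLE factors, -0.0245 with no low-count filter, -0.0234 in DESeq2 and -0.0452 without the choroid-high rats. With the replicate number as a block, 3 of the 10 passed and 1 fell, and 2497 genes rose and 2229 fell over all; Abca1 (adjusted p = 0.0691), Lrp1 (adjusted p = 0.102) and Sorl1 (adjusted p = 0.0629) lost their calls. Same-numbered rats correlated at -0.33 to 0.42, and no source used here says whether the numbers pair rats. Tyrobp at 224 to 524 counts per library and Trem2 at 257 to 512 are the genes that depth limits most.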
